A study of Mus musculus with 8 samples.

Results

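The genes described here are those of the endocannabinoid system of the brain: Cnr1, which encodes the cannabinoid receptor CB1; Cnrip1, which encodes a protein that binds the intracellular tail of CB1; and 5 genes for enzymes that make or break down the receptor's lipid ligands. They were chosen by name, but with earlier results of these data known. All 7 were present among the 15705 genes of the deposited table and passed the filter on low values. The RNA came from the lateral ganglionic eminence (LGE), the part of the embryonic forebrain that gives rise to the projection neurons of the striatum, dissected from mouse embryos at E18.5. There were 4 libraries labelled conditional knockout (cKO), with the genotype Dlx1-Cre; Isl1 flx/flx, and 4 labelled control, with the genotype Isl1 flx/flx. Both groups thus carry 2 floxed alleles of Isl1, the gene of a transcription factor with LIM domains and a homeodomain, and the Cre recombinase is present in the cKO alone, so its presence and the loss of Isl1 cannot be told apart. Dlx1-Cre acts where Dlx1 is active, in the GABAergic lineages of the ventral forebrain, and not in every cell of the dissected tissue. The question was which LGE transcripts change when Isl1 is deleted in those lineages.

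CB1 is a receptor coupled to inhibitory G proteins that lies mostly on axons and their terminals, where it lowers transmitter release. Its ligands are lipids made on demand. 2-arachidonoylglycerol is cut from diacylglycerol by the lipases encoded by Dagla and Daglb and is broken down by the lipase encoded by Mgll, while anandamide is released by the phospholipase encoded by Napepld and broken down by the hydrolase encoded by Faah. In the adult striatum CB1 is abundant in projection neurons, and in the developing forebrain it takes part in the growth and bundling of axons.

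The values are per-gene adjusted read values that the authors deposited as whole numbers, one per library. They summed to between 24202500 and 24456900 in the cKO and between 23732500 and 24419900 in the control libraries, but these sums follow from the authors' scaling and the sequencing depth is unknown. Isl1 itself had adjusted values of 4930, 5377, 5618 and 5971 in the libraries labelled cKO, against 3777, 3692, 4186 and 3517 in the libraries labelled control. It was thus higher, not lower, in the cKO. The labels do not say which part of the gene Cre removes, so this value does not check the labels, and every direction below rests on them. All 9 genes listed for LGE and striatal identity, Dlx5, Gad1, Foxp1 and Bcl11b among them, were above 0 in every library. Their summed value lay between 105322 and 113505 in the cKO and between 100728 and 106538 in the controls. Being above 0 also held for every listed marker of other cell types in the table, so it does not identify the tissue. Among the 15698 genes tested, 1045 passed (limma, Benjamini-Hochberg adjusted p under 0.05), which is 6.66% of them. In the authors' deposited table the number that passed was 1028 at the same threshold, or 6.55%. Of the 1045, 451 rose, or 2.87%, and 594 fell, or 3.78%.

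Cnr1 rose in the cKO and was the only member that passed the test. Its adjusted values were 3868, 3710, 3647 and 3650 in the cKO libraries, against 2549, 3067, 2747 and 2954 in the control libraries. Every cKO library lay above every control library, and the control libraries were spread more widely than the cKO libraries. The mean was 3719 ± 104 in the cKO and 2829 ± 229 in the controls (SD, n = 4 each), a ratio of 1.31. On the log2(value + 1) scale the fold change was 0.40 ± 0.05 (SE), with a 95% interval from 0.28 to 0.52 (limma adjusted p = 0.000772). The exact permutation test over the 8 libraries, two-sided, gave p = 0.0286, the smallest that 4 against 4 allows. In the authors' deposited table Cnr1 had a log2 fold change of 0.40 with an adjusted p of 3.8e-05.

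One member called of 7 is a small count, to be read against the 6.66% of all genes that were called. Likewise the groups did not overlap for 1 member, Cnr1, where this held for 12.7% of all tested genes. The median log2 fold change over the 7 members was -0.01, and over all tested genes it was 0.01. The counts therefore say nothing about the endocannabinoid genes as a set, and the result is that of Cnr1.

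**Figure D1:**
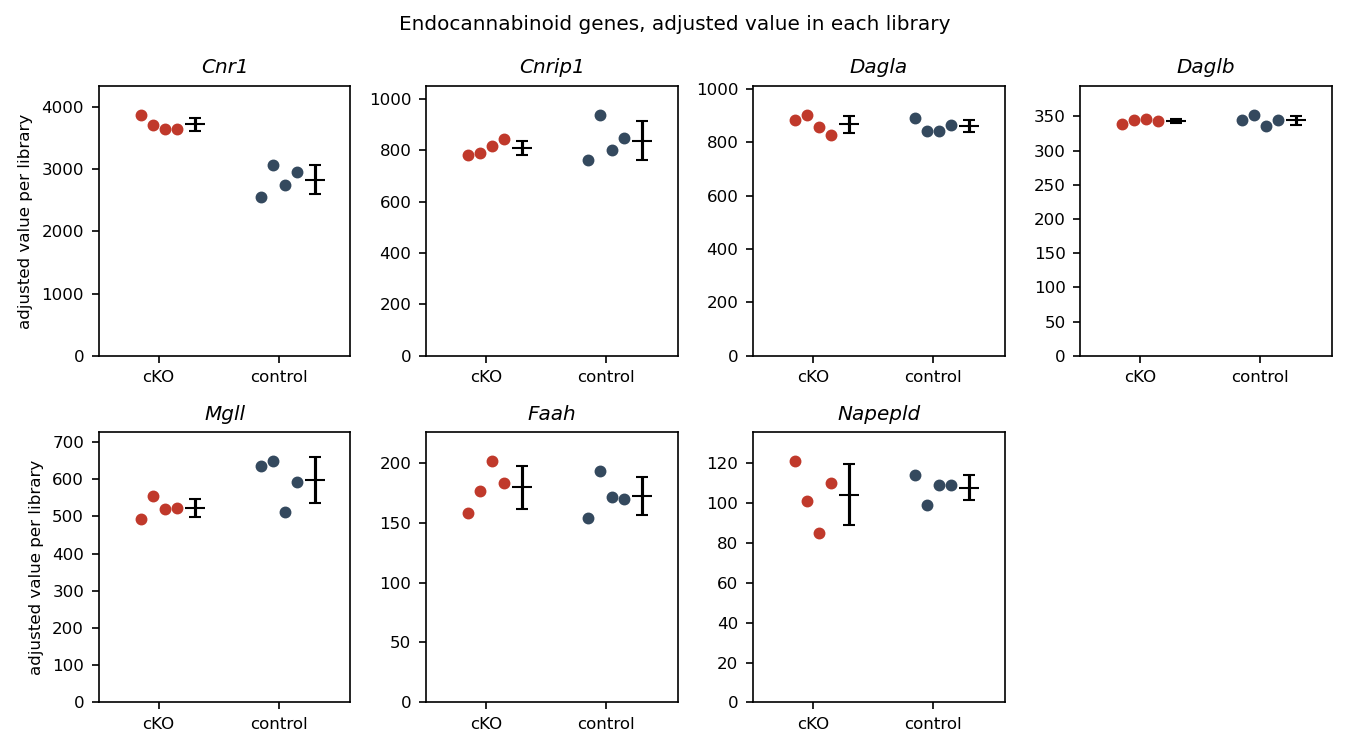
Adjusted value of each of the 7 genes in each of the 8 libraries (y axis from 0 in every panel), with the 4 cKO libraries on the left and the 4 control libraries on the right of each panel, in replicate order; the black mark is the mean with its SD. The Cnr1 panel is the one of the 7 in which the groups are apart, with cKO values from 3647 to 3868 and control values from 2549 to 3067.

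Cnr1 lies on chromosome 4, from 33924593 to 33948831 on the plus strand (GRCm38, GENCODE annotation), with 3 annotated transcripts. RefSeq gives 3 start sites for it on the same build, and their promoter windows are shown here because Cnr1 is the member whose transcript level differed. Each window runs from 250 bases before a start site to 50 after it, 5′ to 3′ on the plus strand, and capitals mark the tetranucleotide TAAT or its reverse complement ATTA, the core that many homeodomain proteins bind.
Cnr1 window 1, chr4:33924014-33924313: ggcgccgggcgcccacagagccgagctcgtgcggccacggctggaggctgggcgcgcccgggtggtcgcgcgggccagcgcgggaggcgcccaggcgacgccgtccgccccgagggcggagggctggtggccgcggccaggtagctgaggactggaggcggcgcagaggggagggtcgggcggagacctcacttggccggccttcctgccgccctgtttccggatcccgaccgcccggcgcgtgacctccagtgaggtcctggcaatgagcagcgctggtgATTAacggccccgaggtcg
Cnr1 window 2, chr4:33924394-33924693: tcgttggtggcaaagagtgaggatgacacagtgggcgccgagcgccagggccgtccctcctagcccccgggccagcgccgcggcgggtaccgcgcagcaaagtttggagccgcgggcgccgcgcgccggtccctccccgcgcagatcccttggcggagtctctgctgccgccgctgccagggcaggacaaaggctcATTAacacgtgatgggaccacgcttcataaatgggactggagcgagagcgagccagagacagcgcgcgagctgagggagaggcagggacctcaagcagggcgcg
Cnr1 window 3, chr4:33926130-33926429: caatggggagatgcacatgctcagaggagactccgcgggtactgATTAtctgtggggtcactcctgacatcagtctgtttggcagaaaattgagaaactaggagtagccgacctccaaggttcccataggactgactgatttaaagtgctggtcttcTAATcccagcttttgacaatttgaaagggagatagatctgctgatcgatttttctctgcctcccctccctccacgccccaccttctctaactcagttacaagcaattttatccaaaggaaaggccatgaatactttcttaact

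The first Cnr1 window held the motif once, 31 bases after the start site. The second held it once, 54 bases before the start site, and the third held it 206 and 93 bases before its own. On either strand, 58.0% of the 32851 promoter windows of this length hold TAAT, so its presence is common. The longer form TAATTA, found in 5.29% of all windows, was in none of the 3. Windows 1 and 2 were rich in G and C, at 76.3% and 69%, against 46.3% in window 3 and a median of 52.7% over all windows. Of the 6 windows listed for Cnrip1, Daglb, Mgll, Faah and Napepld, 3 held TAAT, those of Cnrip1 and Daglb and 1 of the pair of Mgll windows. The expression values do not say which start site was used, and a match of letters is a description of the window, not a binding site.

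Neither tested neighbour of Cnr1 on chromosome 4 passed. The nearest tested gene before it, Rngtt, lies 421979 bases away and had a log2 fold change of 0.06 (limma adjusted p = 0.605). The nearest after it, Spaca1, lies 76043 bases away and had a log2 fold change of -0.46 ± 0.49 (SE, adjusted p = 0.689), from low values. Among the other members, none of the 12 nearest tested neighbours that do not overlap the member passed either. Plek, which overlaps Cnrip1 and is given below, was left out of this count. No exon of another annotated gene overlaps those of Cnr1.

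Cnrip1, whose product binds CB1, did not pass. Its adjusted values were 781, 790, 818 and 845 in the cKO, against 760, 937, 802 and 848 in the controls. The cKO libraries lay within the range of the controls. The log2 fold change was -0.05, with a 95% interval from -0.19 to 0.09 (adjusted p = 0.771), an interval that does not reach the change of Cnr1. The log2 ratio of Cnr1 to Cnrip1 was 2.20 ± 0.09 in the cKO and 1.76 ± 0.04 in the controls (SD, n = 4 each), a difference of 0.44. The exons of Cnrip1 overlap those of Plek on the opposite strand over 199 bases. Plek rose (0.39, adjusted p = 0.006). The library kit kept strand, but the counting options are unknown here, so the value of Cnrip1 is uncertain to that extent.

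The enzymes that make 2-arachidonoylglycerol had nearly the same values in both groups. Dagla, which encodes the diacylglycerol lipase that supplies most of this ligand in the brain, had adjusted values of 883, 902, 857 and 828 in the cKO and 889, 843, 842 and 865 in the controls. The ranges overlapped almost fully, and the log2 fold change was 0.01 with a 95% interval from -0.09 to 0.11 (adjusted p = 0.924). Daglb, the second diacylglycerol lipase gene, had 339, 345, 346 and 343 in the cKO and 345, 352, 336 and 345 in the controls. It was the member that varied least between libraries, with a coefficient of variation of 0.902% in the cKO and 1.90% in the controls. Its log2 fold change was -0.01 (95% interval -0.12 to 0.11, adjusted p = 0.977). The exons of Daglb overlap those of Rac1 on the opposite strand over 2309 bases, with the same uncertainty as for Cnrip1, and Rac1 did not pass (0.03, adjusted p = 0.823).

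Mgll, which encodes the lipase that ends most 2-arachidonoylglycerol signalling in the brain, was lower in the cKO without passing the test. Its adjusted values were 493, 554, 520 and 523 in the cKO, against 636, 648, 511 and 593 in the controls. The groups overlapped only through control replicate 3, whose value of 511 lay among those of the cKO. The mean was 522.5 ± 25 in the cKO and 597 ± 62.0 in the controls (SD, n = 4 each), with a log2 fold change of -0.19 ± 0.08 (SE). The 95% interval ran from -0.35 to -0.02, the adjusted p was 0.203, and the exact permutation test gave p = 0.114. Without control replicate 3 the log2 fold change was -0.26 and the limma adjusted p 0.0361, so this library decides whether Mgll is called. Control replicate 3 and cKO replicate 4 also stood apart in markers of pallial neurons, given below, and without both the value was -0.26 with an adjusted p of 0.0859. The exons of Mgll overlap an antisense gene, Gm26588, over 167 bases, and that gene was not tested.

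The pair of anandamide enzymes did not pass. Faah, the gene for the hydrolase that breaks anandamide down, had adjusted values of 158, 176, 201 and 183 in the cKO and 154, 193, 171 and 170 in the controls, with a log2 fold change of 0.06 (95% interval -0.16 to 0.28, adjusted p = 0.814). Napepld, for the phospholipase that releases it, had 121, 101, 85 and 110 in the cKO and 114, 99, 109 and 109 in the controls, with a log2 fold change of -0.06 (95% interval -0.32 to 0.21, adjusted p = 0.861). These are the members with the lowest values, the groups overlapped for both, and the intervals are wider than those of the other members. Neither interval reaches 0.40, the change fitted for Cnr1.

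**Figure D2:**
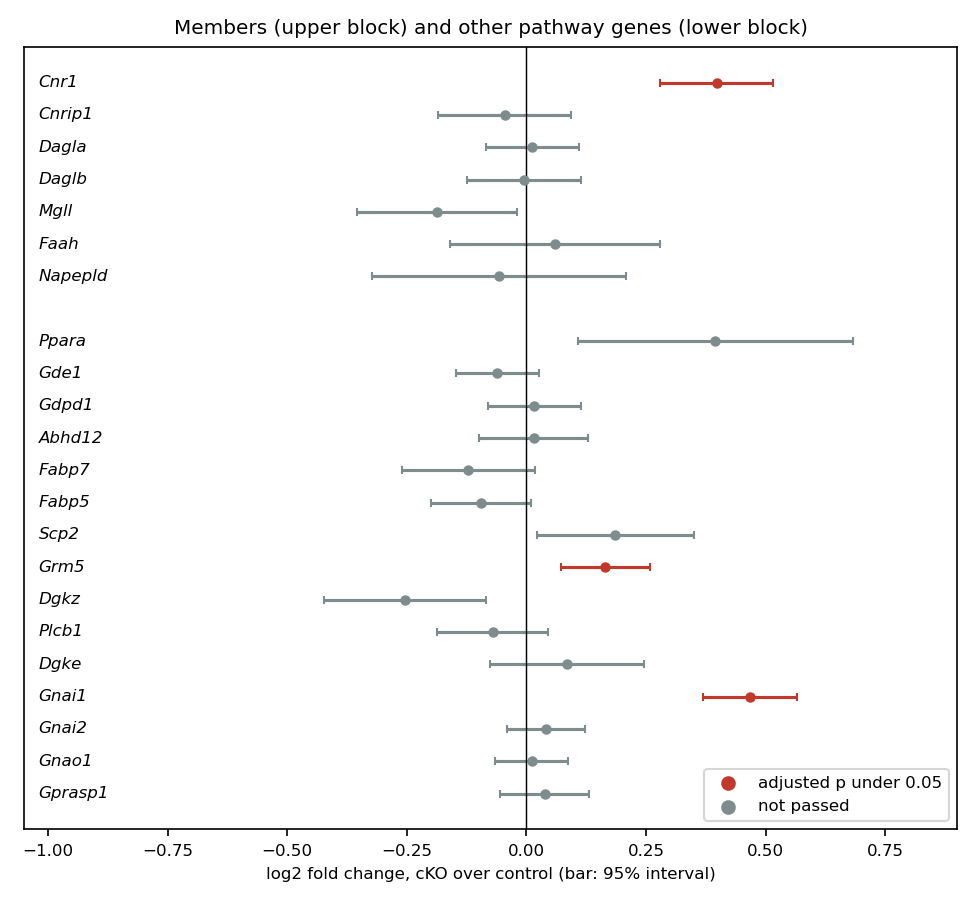
Log2 fold change of cKO over control with its 95% interval for the 7 endocannabinoid genes (upper block) and for 15 other pathway genes (lower block; Cnr2 is left out for its wide interval). Red marks an adjusted p under 0.05. Cnr1 at 0.40, Gnai1 at 0.47 and Grm5 at 0.16 are the genes in red.

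Set against each other member within a library, Cnr1 was relatively higher in the cKO. For each of the other 6 genes the log2 ratio of Cnr1 to that gene was higher in all 4 cKO libraries than in any control library. The difference of the mean log2 ratio, cKO minus control, ranged from 0.34 against Faah to 0.58 against Mgll, and was 0.38 against Dagla and 0.40 against Daglb. These differences are a description, since all 6 share the values of Cnr1, whose groups were already apart, and are no further test of it.

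In RPKM, a level per gene length, the receptor and its binding protein stood above the enzymes. Cnr1 averaged 26.4 ± 0.81 RPKM in the cKO and 20.2 ± 1.47 in the controls, and Cnrip1 21.6 ± 0.68 in the cKO and 22.5 ± 1.84 in the controls (SD, n = 4 each). Dagla averaged 6.35 ± 0.26 RPKM in the cKO and 6.32 ± 0.25 in the controls, Mgll 4.65 ± 0.22 RPKM in the cKO and 5.35 ± 0.58 in the controls, and Daglb 4.36 ± 0.05 RPKM in the cKO and 4.40 ± 0.10 in the controls. Faah, at 1.94 ± 0.19 RPKM in the cKO and 1.87 ± 0.15 in the controls, and Napepld, at 1.17 ± 0.17 RPKM in the cKO and 1.22 ± 0.08 in the controls, were lowest. Cnr1 exceeded 80.6% of all genes in the table in the cKO and 74.3% in the controls, whereas Napepld exceeded 22.4% in the cKO and 22.7% in the controls. The median gene had 7.79 RPKM in the cKO and 7.85 in the controls, so each of the 5 enzyme genes was below it.

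The order of the levels was the same in both groups except at the top. Cnr1 was above Cnrip1 in all 4 cKO libraries, by 1.14 to 1.31 times. In all 4 control libraries Cnrip1 was above Cnr1, by 1.08 to 1.15 times, although their ranges over libraries overlapped. This order depends on the lengths behind the RPKM values, which come out at 5807 bases for Cnr1 and 1539 for Cnrip1. With the union of the exons in GENCODE, 6444 and 4003 bases, Cnr1 was above Cnrip1 in both groups, at 23.8 against 8.32 in the cKO and 18.2 against 8.66 in the controls, in the same unit. Cnrip1 then stood less far above Dagla, which was at 6.22 in the cKO and 6.20 in the controls. The order of Faah and Napepld turned round with these lengths. Mgll and Daglb were neighbours with overlapping ranges in the cKO, from 4.40 to 4.94 RPKM and from 4.32 to 4.41 RPKM, and did not overlap in the controls, at 4.53 to 5.79 and 4.25 to 4.48 RPKM. With the exon lengths this pair was apart in both groups, with Mgll at 4.24 and Daglb at 1.48 in the cKO, and Mgll at 4.87 and Daglb at 1.49 in the controls. All other neighbours in the RPKM order were apart in every library of both groups.

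**Figure D3:**
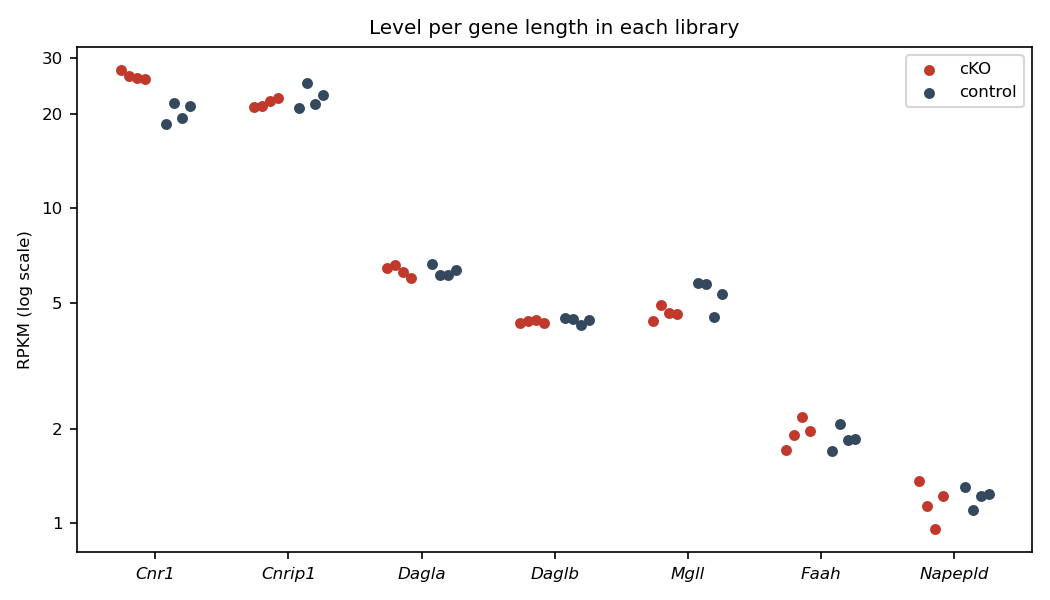
RPKM on a log axis for the 7 genes in each library, cKO on the left (red) and control on the right (dark) of each gene. Cnr1 and Cnrip1, which reach 27.5 and 24.9 RPKM, lie above the 5 enzyme genes, whose highest value is 6.65 RPKM.

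Other genes of the pathway were taken from lists of receptors, further metabolic enzymes, lipid carriers, the supply of diacylglycerol and CB1 partners. Of the 35 of them that were tested, 2 rose and none fell, against 2.87% of all genes that rose. Their median log2 fold change was 0.02. The pair that rose were Gnai1 and Grm5.

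Gnai1 encodes an alpha subunit of the inhibitory G proteins through which CB1 and many other receptors signal. Its adjusted values were 2782, 2810, 2701 and 2588 in the cKO, against 1907, 2072, 1859 and 2034 in the controls, and the groups were well apart. The log2 fold change was 0.47 ± 0.04 (SE), with an adjusted p of 6.01e-05. The log2 ratio of Cnr1 to Gnai1 was 0.45 ± 0.04 in the cKO and 0.52 ± 0.07 in the controls (SD, n = 4 each). The other 7 CB1 partners did not pass. Among them, Gnai2 was at 0.04 (adjusted p = 0.619), Gnao1, which encodes the most abundant G protein alpha subunit of the brain, at 0.01 (0.912), and Gprasp1, a receptor-sorting protein gene, at 0.04 (0.706).

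Grm5 encodes the metabotropic glutamate receptor mGluR5, whose activation yields the diacylglycerol from which 2-arachidonoylglycerol is made. It had adjusted values of 6690, 6162, 6733 and 6142 in the cKO, against 5868, 5507, 5651 and 5912 in the controls. The groups did not overlap, but the change was small, at 0.16 ± 0.04 (SE, adjusted p = 0.0387). The Grm5 call was lost in most alternatives, among them the authors' deposited table, where its adjusted p was 0.174, and 6 of the 8 fits that left out 1 library, each of the 4 controls and cKO replicates 1 and 3. Of the other 7 genes of this list none passed. Dgkz, a diacylglycerol kinase gene, was at -0.25 (adjusted p = 0.0804), and the fit that left out cKO replicate 1 called it (-0.31, 0.0275). Plcb1, a phospholipase C gene, was at -0.07 (0.538) and Dgke, another kinase gene, at 0.09 (0.598).

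None of the 13 further metabolic enzymes passed. The most abundant were Gde1, for a glycerophosphodiesterase of an alternative route to anandamide (-0.06, adjusted p = 0.465), Gdpd1, of the same family (0.02, 0.897), and Abhd12, for a minor lipase of 2-arachidonoylglycerol (0.02, 0.92). None of the 4 lipid carriers passed. Fabp7, the fatty acid binding protein of radial glia, was at -0.12 (adjusted p = 0.341), Fabp5 at -0.10 (0.322) and Scp2, a sterol carrier gene, at 0.19 (0.199). Scp2 passed without control replicate 2 (0.26, adjusted p = 0.0311) and with the replicate number as a block (adjusted p = 0.0382). Of the other receptors, 2 were tested. Ppara, a nuclear receptor for fatty acid ethanolamides, had values of 125, 109, 111 and 133 in the cKO, against 105, 74, 101 and 85 in the controls. The groups did not overlap, yet its log2 fold change of 0.39 ± 0.13 (SE) had an adjusted p of 0.112. Cnr2, the gene of the second cannabinoid receptor, which is mainly one of immune cells, was near the floor of the table, with values of 6, 7, 2 and 5 in the cKO and 2, 7, 2 and 4 in the controls.

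Marker transcripts of several kinds of cells differed between the groups, and their values stand here beside the rise of Cnr1. In bulk tissue, more cells of a type and more RNA per cell cannot be told apart. Of the 9 genes of LGE and striatal identity, Dlx5 (0.24), Dlx6 (0.33) and Meis2 (0.34), genes of transcription factors, rose, and Ppp1r1b (-0.74), the gene of the striatal phosphoprotein DARPP-32, fell. Of 5 striatonigral markers, genes of the projection neurons of the direct pathway, 4 fell and none rose. Drd1, a dopamine receptor gene of this list, did not pass (-0.20, limma adjusted p = 0.217). The summed adjusted value of the 5 lay between 1181 and 1518 in the cKO and between 3797 and 4320 in the controls. No gene of this list was at 0, and Tac1 alone averaged 268 in the cKO and 2015 in the controls. Of 5 striatopallidal markers, of the indirect pathway, Adora2a (0.31) and Drd2 (0.20) rose and none fell. Gpr6 (0.44), Sp9 (0.05) and Penk (0.02) did not pass, and in the authors' deposited table Drd2 did not pass either (adjusted p = 0.122). The sums of this list lay between 8729 and 9061 in the cKO and between 7980 and 8572 in the controls. Of 9 microglial markers 8 rose and none fell, with sums between 2212 and 2806 in the cKO and between 1399 and 1619 in the controls. Of 5 erythroid genes 3 rose, Hba-a1 and Hba-a2, which hold identical values, and Hbb-bt, with sums between 10733 and 14747 in the cKO and between 7422 and 11754 in the controls. The part of these changes in the rise of Cnr1 was not tested.

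Interneurons, many of which carry CB1, were also examined. Of 7 tested markers of interneurons from the caudal ganglionic eminence and of the Cck type, Adarb2 rose (0.84, adjusted p = 4.13e-06) and Reln fell (-1.34, adjusted p = 3.22e-05). Cck itself averaged 5.25 in the cKO and 5.5 in the controls. Of 7 markers of medial ganglionic eminence interneurons, Maf rose (0.31), and Npy (-0.71) and Nos1 (-0.59) fell. Sst, of the same list, did not pass (-0.53, limma adjusted p = 0.056), but it passed in the authors' deposited table (adjusted p = 0.0247). Of 6 astrocyte and radial glia markers, 5 of the oligodendrocyte lineage and 6 of vascular cells none passed. The log2 fold change was above 0 for 1 of the 6, 0 of the 5 and 6 of the 6, in that order. No listed marker that was present in the table was at 0 in any library. Their part in the Cnr1 result was not tested.

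Markers of pallial neurons, cells that are rich in CB1 in the embryo, differed widely between libraries. The mean log2 value of 8 pallial markers was 5.68, 6.61, 5.92 and 4.21 in cKO replicates 1 to 4, against 6.11, 6.65, 3.58 and 6.31 in control replicates 1 to 4. None of the 8 passed, and the lowest libraries were cKO replicate 4 and control replicate 3. Their Cnr1 values were 3650 and 2747. Without both libraries the log2 fold change of Cnr1 was 0.39 (limma adjusted p = 0.0146). The part of pallial neurons in the rise of Cnr1 was not tested.

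Sex is not given in the labels, and the libraries differed in Xist. This gene, whose transcript coats the inactive X chromosome, was at 40998 in cKO replicate 3 and at 163643 and 30711 in control replicates 2 and 4, and between 2 and 45 in the other 5 libraries. Among the 5 libraries with low Xist, Cnr1 was at 3868, 3710 and 3650 in the cKO and at 2549 and 2747 in the controls. Among the 3 with high Xist it was at 3647 in the cKO and at 3067 and 2954 in the controls. The cKO lay above the controls in either part, as in any split, since every cKO library lay above every control library. With Xist as a covariate, an alternative chosen after seeing the data, the log2 fold change of Cnr1 was 0.42 (limma adjusted p = 0.000911). The part of sex in the rise of Cnr1 was not tested.

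**Figure D4:**
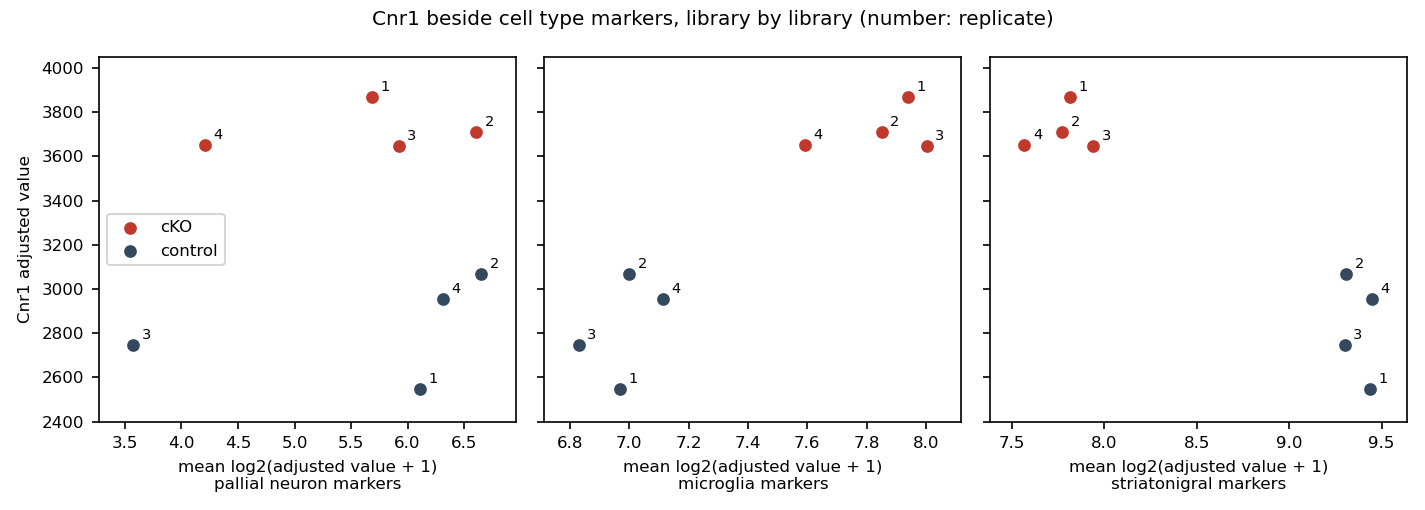
Adjusted value of Cnr1 (y axis, not from 0) against the mean log2 value of pallial, microglial and striatonigral markers in each library; red is cKO, dark is control, and the number is the replicate. The groups overlap in the pallial markers, with control replicate 3 and cKO replicate 4 alone at the low end, and do not overlap in the microglial and striatonigral markers.

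Within the groups, the correlation with Cnr1 differed between the other members. After the group mean was subtracted, the Pearson correlation with Cnr1 over the 8 libraries was 0.75 for Cnrip1 and lay between -0.21 and 0.37 for the 5 enzyme genes. These are descriptions over 8 libraries that share the authors' adjustment. How often correlations this high arise by chance in so few libraries was not tested, here or for the genes below. Among 11266 other genes with a mean value of at least 100, those most like Cnr1 over the 8 libraries were Usp54 (r = 0.986), Pcdh20 (0.984), Vstm2b (0.983), Tex2 (0.981) and Hsdl1 (0.978), and 205 genes had a correlation above 0.9. Of these 5, Pcdh20 rose by 1.02 and Vstm2b by 0.78 on the log2 scale, Hsdl1 and Tex2 rose by 0.20 and 0.17, and Usp54, at 0.09, did not pass (adjusted p = 0.223). After subtraction of the group means the closest genes were Nbn, Prkrip1, Olfm3, Edil3 and Ocrl, with correlations from 0.967 to 0.986, and 50 genes were above 0.9.

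The rise of Cnr1 was stable under the alternatives. In 22 other fits, which changed the pseudocount, filter, scaling, columns, model or libraries, its log2 fold change lay between 0.35 and 0.44 and its adjusted p was at most 0.0146. Gnai1 passed in all 22 as well, with log2 fold changes between 0.44 and 0.49. The other 6 members passed in none of them, except Mgll in the fit without control replicate 3.

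**Figure D5:**
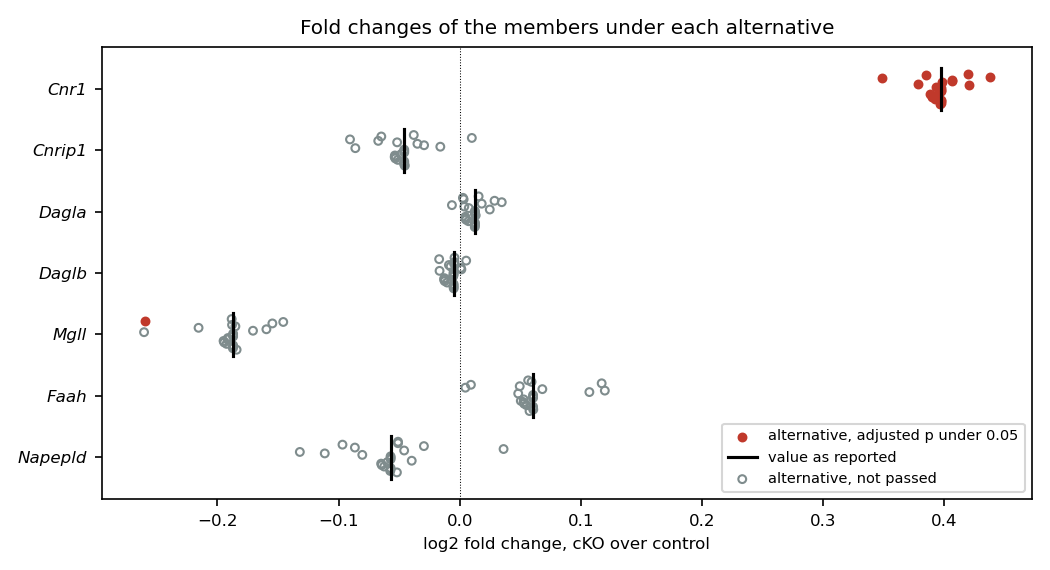
Log2 fold change of each of the 7 genes, cKO over control, in the fit as reported (black line) and in each of 22 alternatives (points; filled red where the adjusted p was under 0.05). All Cnr1 points are filled and lie between 0.35 and 0.44, and 1 Mgll point is filled, at -0.26.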

How the data were processed

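Poly(A) RNA of 8 libraries was measured by single reads of 85 bp from a directional kit, per the labels' protocols. STAR, featureCounts, edgeR and the build mm10 are named in the submitters' processing notes, and versions and counting options were not given there. The authors' whole-number columns hold a score, adjusted read values with almost equal upper quartiles, not raw counts. Among 5711 genes with a mean above 1000, the 6th residual direction within the groups had a singular value of 0.0182, against 3.29 for the 5th. The values thus lack 1 direction of variation, as after an adjustment by the authors that no source used here describes; SDs, SEs and p-values are then too small to a degree, and its effect on the group means is unknown. 2 further columns of group averages were used to order the other pathway genes by level. The deposited RPKM columns are these values over their sum and gene length. The authors' deposited log2 fold changes and p-values served as an alternative; despite the column's name, their sign is cKO over control.

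Values were taken as log2(value + 1), genes with at least 1 in 4 or more libraries kept (7 left out), and groups compared with limma 3.58.1 (mean trend, R 4.3.3) over all genes, with Benjamini-Hochberg adjustment at 0.05. Since the file holds no counts, no count model was fitted. Exact tests enumerated 70 assignments and take libraries as exchangeable, which such an adjustment may break, so their p-values may be too small. The labels do not say whether libraries share a litter, and p-values measure the spread between these libraries. The replicate numbers showed no clear pairing of the libraries, but values that lack 1 direction of variation cannot settle this. Alternatives were other pseudocounts, filters, scalings, columns and models, the replicate block, an Xist covariate and leaving out libraries. All 7 members are named; of the other pathway lists, every gene that passed and the 3 most abundant others. The members and lists were chosen with earlier results of these data known. Promoter sequences are RefSeq's (GRCm38.p6), listed for 6 of the 7 members.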

Additional observations from a re-analysis of the deposited data

How the results depend on the processing

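Cnr1 and Gnai1 kept their direction and passed in all 22 alternatives. The count of members that passed was 1, between 1 and 2 when 1 library was left out, the second being Mgll without control replicate 3. The 1045 genes called in all became 608 without control replicate 3 and cKO replicate 4 together, and between 658 and 959 when 1 library was left out. The count of 2 other pathway genes became 1 with median-of-ratios, TMM-type or equal-sum scaling, the RPKM columns, the authors' table, the removed direction charged to the residual, no mean trend or the Xist covariate, in each case by the loss of Grm5, and lay between 1 and 3 when 1 library was left out. With the replicate block it was 4, Scp2 (adjusted p = 0.0382) among them, 1199 genes passed in all, and Cnr1 had an adjusted p of 0.000605. Same-numbered libraries deviated together with correlations between -0.49 and 0.13, and 1 of the 4 cKO libraries correlated best with its own number. The level of Cnr1 over Cnrip1 was 1.22 in the cKO and 0.897 in the controls, and with GENCODE exon lengths 2.86 in the cKO and 2.10 in the controls.

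The signs that changed were those of small values. When 1 library was left out, log2 fold changes lay between -0.0906 and 0.00999 for Cnrip1, -0.00644 and 0.0347 for Dagla, -0.0170 and 0.00532 for Daglb, -0.132 and 0.0362 for Napepld, -0.00897 and 0.0411 for Gdpd1, -0.0294 and 0.0438 for Abhd12, and -0.00698 and 0.0227 for Gnao1. With the Xist covariate Daglb was at 0.00135, and without control replicate 3 and cKO replicate 4 together Gprasp1 was at -0.0148. Depth is unknown, so counting error cannot be given.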
